A study of Mus musculus with 2 samples.

Results

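Cycling medullary epithelial cells of the mouse thymus were examined as 109 cells out of 3447 droplet barcodes. They were chosen by measured values. A cell had to show at least 500 detected genes, less than 15% of its molecules from mitochondrial genes, no molecule of the leukocyte gene Ptprc, and 3 or more molecules in all of the epithelial genes Krt5, Krt8, Krt14, Krt18 and Epcam. That epithelial gate held 1808 barcodes, of 2527 that passed the quality bounds. A gate cell was called cycling when 4 or more of 9 division genes were detected: Mki67, Top2a, Birc5, Cdk1, Ube2c, Cenpf, Rrm2, Ccnb1 and Pclaf.

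The cells came from thymi of 6-week-old female C57BL/6 (B6), BALB/c and NOD mice, 2 mice of each strain, with no treatment named. Leukocytes bearing CD45 were removed on magnets, and epithelial cells lacking podoplanin (Pdpn) and CD104 were sorted as mTEClo, the medullary epithelial cells with little MHC class II on their surface. Each mouse received its own antibody-borne hashtag, and all mice were captured together in 1 pool. A gene expression and a hashtag library of that pool were joined by their shared cell barcodes. The mouse is the replicate, and where nothing else is stated an n is 2 mice a strain.

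Medullary thymic epithelial cells (mTEC) display proteins of other tissues to developing T cells, so that T cells that would attack them are removed or diverted. The transcription regulator Aire, together with Fezf2, drives much of this display. Cells that express Aire arise from dividing precursors, receive signals through the receptors RANK (Tnfrsf11a) and CD40, and can later become mimetic cells that resemble tuft, microfold, ciliated and other peripheral cells. Division itself runs from licensing of origins by the Mcm complex, through DNA synthesis in S phase, to the kinases, motors and anaphase regulators of G2 and mitosis.

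The link from a cell to its mouse rests on 6 hashtag oligos of 15 bases, any pair of which differs at 8 to 14 positions. They are printed 5′ to 3′ because every strain comparison depends on telling them apart.
B6 mouse 1: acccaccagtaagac
B6 mouse 2: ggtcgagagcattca
BALB/c mouse 1: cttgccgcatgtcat
BALB/c mouse 2: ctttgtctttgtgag
NOD mouse 1: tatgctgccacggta
NOD mouse 2: tatagaacgccaggc
A mouse was assigned when its hashtag made up at least 80% of 100 or more hashtag molecules. Of the 109 cycling cells, 78 had a mouse: 10 and 6 for B6, 8 and 27 for BALB/c, 15 and 12 for NOD.

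The promoters of the 9 selecting genes are of interest because most of those genes are known to be switched on in G2 and mitosis, through elements called CHR and CCAAT boxes, while Rrm2 and Pclaf are known as genes of the entry into S phase. Promoters were the 250 bases before each start site in RefSeq (build GRCm38.p6), and all 9 genes were matched. The letters TTTGAA or TTTAAA (CHR) were found on either strand in 7 of the 9 promoters, against 25.2% of 32851 promoters of 27025 genes. CCAAT was found in 8 of 9, against 33.8% of all. Both together were found in 6 of 9, against 8.78% of all. An E2F-type site (TTTCCCGC, TTTGGCGC, TTTCGCGC or TTTGCCGC) was found in 1 of 9, against 1.86%. A match describes these letters and is not a measured binding site. A promoter with both elements (Ccnb1, the mitotic cyclin), one with all 3 kinds (Cdk1, its kinase) and one without CHR (Pclaf, a partner of the replication clamp) are printed in sense of the gene with the matches in capitals.
Ccnb1, chr13:100786487-100786736, minus strand: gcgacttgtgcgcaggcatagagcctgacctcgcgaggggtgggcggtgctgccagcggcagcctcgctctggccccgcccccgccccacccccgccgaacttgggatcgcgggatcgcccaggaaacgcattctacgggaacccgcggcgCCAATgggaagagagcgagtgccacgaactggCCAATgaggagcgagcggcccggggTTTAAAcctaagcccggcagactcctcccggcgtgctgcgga
Cdk1, chr10:69352913-69353162, minus strand: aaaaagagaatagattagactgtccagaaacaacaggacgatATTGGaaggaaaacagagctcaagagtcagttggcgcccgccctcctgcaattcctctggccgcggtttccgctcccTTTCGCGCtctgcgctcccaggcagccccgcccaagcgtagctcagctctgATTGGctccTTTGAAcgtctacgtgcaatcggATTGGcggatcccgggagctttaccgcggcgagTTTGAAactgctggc
Pclaf, chr9:65890073-65890322, plus strand: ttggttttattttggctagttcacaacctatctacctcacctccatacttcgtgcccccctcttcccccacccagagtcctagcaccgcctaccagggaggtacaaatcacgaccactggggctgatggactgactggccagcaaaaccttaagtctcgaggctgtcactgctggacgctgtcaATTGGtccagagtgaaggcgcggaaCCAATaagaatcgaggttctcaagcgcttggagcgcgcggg
Among genes of the G2/M list used below, 32.5% of 40 promoters held CHR, 72.5% CCAAT and 0.0% an E2F-type site. Among genes of the S phase list, 19.4% of 36 promoters held CHR, 52.8% CCAAT and 22.2% an E2F-type site.

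Levels are given in CPM: the UMIs (distinct captured RNA molecules) of a gene, divided by all UMIs of the named cells and multiplied by 1000000. The comparison cells were 151 non-cycling Aire-positive cells, which passed the same gate with at most 1 of the 9 genes detected and 1 or more Aire UMIs, and 1451 non-cycling Aire-negative cells. A further 97 gate cells with 2 or 3 of the genes fell in neither class. The cycling cells held a median of 42902 UMIs (range 3583 to 129853), against 22140 in the Aire-positive and 13249 in the Aire-negative cells. Their sums ran from 259727 UMIs (B6 mouse 2) to 913625 (BALB/c mouse 2). Depth moves with the rule, since a deeper cell shows more genes: when each cell was thinned to 5000 UMIs, 60 of the 106 cycling cells that reached that depth still showed 4 or more of the genes, and 19 showed 0 or 1. At the boundary, the 24 cells with 3 genes detected held a median of 37909 UMIs and the 24 cells with 4 held 18848.5, with Aire at 399.5 and 408.6 CPM.

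The name was checked against markers. Aire stood at 272 CPM in the cycling cells and at 307 CPM in the Aire-positive cells that were chosen for it, and 70.6% of cycling cells held an Aire UMI, against 9.43% of gate cells with at most 1 of the genes. After thinning to 5000 UMIs these shares were 48.1% and 5.49%. The 7 cortical markers summed to 288.5 CPM, against 430.8 in Aire-positive and 139.0 in Aire-negative cells. Of these, 3 were higher and 4 lower than in Aire-positive cells, and Psmb11 was at 1.36 CPM. The 6 fibroblast markers summed to 18.17 CPM and the 5 endothelial markers to 5.679 CPM. Thymocyte markers summed to 22.94 CPM, with Cd8a, Rag1, Rag2 and Dntt at 0. The 14 dendritic and myeloid markers summed to 413.4 CPM, against 1264.3 CPM in the Aire-positive cells, and most of that came from Laptm5, Cd52 and Lyz2, while Itgax, Xcr1, Clec9a and Siglech were each below 1 CPM. The medullary label therefore held for most of the cells, but not for all: 12 cells carried a ciliated-cell programme with almost no Aire, and 5 carried large amounts of immunoglobulin RNA. These 17 cells, set apart by thresholds chosen after the values were seen, are described on their own, and the results are given with and without them. The remaining 92 cells are called the other members.

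All 9 selecting genes were high in the cycling cells and near 0 elsewhere, which the rule required, so their levels are a description with no test. Top2a, the topoisomerase that untangles sister chromatids, was at 301 CPM against 4.39 in Aire-positive non-cycling cells. Its levels by mouse were 191 and 397 CPM (B6), 443 and 321 (BALB/c) and 269 and 216 (NOD). Mki67, which coats mitotic chromosomes, was at 216 CPM against 3.02, with 73 and 158 CPM (B6), 253 and 271 (BALB/c) and 166 and 254 (NOD mice). The lowest value of both genes was that of B6 mouse 1. Pclaf was at 295 CPM against 0.274, with 98.2 and 343 CPM (B6), 174 and 409 (BALB/c) and 260 and 277 (NOD mice). Rrm2, a subunit of the enzyme that makes deoxynucleotides, was at 110 CPM against 1.65, with 52.9 and 84.7, 50.1 and 125, and 160 and 202 CPM in the same order of mice. Both NOD mice were above the other 4 mice for Rrm2, whereas the strains overlapped for Pclaf. The mitotic genes Cdk1 (210 CPM against 6.31), Ube2c (221 against 2.74), Cenpf (162 against 0.274), Birc5 (139 against 2.47) and Ccnb1 (67.7 against 0) completed the set.

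Genes of the division machinery that the rule did not read were at higher levels too. In the origin licensing list, all 18 genes were higher in cycling than in Aire-positive non-cycling cells over all cells, 14 of them in each of the 6 mice, and the list summed to 580.4 CPM against 123.4. Mcm7, a helicase subunit, was at 85.2 CPM against 18.1. In the DNA synthesis list, 31 of 32 genes were higher, 21 in every mouse, with sums of 1891.9 and 637.9 CPM. Pcna, the replication clamp, was at 121 CPM against 44.7, Dut, which removes dUTP, at 309 against 62.5, and Tyms, which makes thymidylate, at 116 against 11.2. These are the same cells that the rule compared, so no test is attached.

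The mitotic lists were set further apart. Mitotic kinases and cyclins summed to 1763.6 CPM against 178.0, with 20 of 21 genes higher (18 in every mouse) and the phosphatase gene Cdc25b lower. Cks2, a small partner of Cdk1, was at 384 CPM against 29.9, the securin gene Pttg1 at 225 against 21.9, and Cdc20, an activator of the anaphase-promoting complex, at 160 against 1.65. All 40 spindle, kinetochore and condensin genes were higher, 37 of them in every mouse, with sums of 2524.8 and 188.4 CPM. Among them, the condensin subunit Smc4 was at 166 CPM against 40.9, Cdca8 of the chromosomal passenger complex at 142 against 2.47 and the spindle factor Tpx2 at 130 against 1.92. The chromatin protein gene Hmgb2 reached 1659.1 CPM against 117.7, and the linker histone gene H1f5 159.2 against 0.548.

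Regulators of the cycle were split. Of 32 regulators, 24 were higher and 8 lower, only 6 were higher in every mouse, and the sums were close (2276.3 and 2206.0 CPM). The G1 kinase gene Cdk4 was at 321 CPM against 143 and was higher in all 6 mice. Ccne2, which encodes a G1/S cyclin, was at 32.9 CPM against 1.10, and Foxm1, a driver of G2/M genes, at 10.7 against 0.274. The cyclin D gene Ccnd2 was at 531 CPM against 425 and the inhibitor gene Cdkn1c at 244 against 629. All 14 genes of the Myc and ribosome biogenesis list were higher, 11 in every mouse, with Npm1 at 1592.3 CPM against 703 and Ncl at 1167.1 against 457.

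The medullary programme was present alongside division. Fezf2 was at 400 CPM in cycling cells, 490 in Aire-positive and 117 in Aire-negative non-cycling cells. Aire by mouse was at 310 and 100 CPM (B6), 633 and 222 (BALB/c) and 268 and 410 (NOD mice), so the 3 strains overlapped. In the list of Aire and its partners 4 of 14 genes were higher and 10 lower than in Aire-positive cells. RANK (Tnfrsf11a) was at 262 CPM against 332, its downstream factor Relb at 197 against 253, Cd40 at 105 against 106 and the costimulatory ligand gene Cd80 at 58.4 against 76.5.

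Antigen presentation genes were at the level of Aire-positive cells. The 13 MHC class II genes summed to 19314.9 CPM in cycling, 21654.8 in Aire-positive and 5495.4 in Aire-negative cells, although the sort was for low surface MHC class II. The invariant chain gene Cd74 was at 9321.2, 9767.3 and 2297.8 CPM in these 3 classes. Of 15 genes often used as targets of Aire, 1 (Spt1) was not used here for want of a matching symbol. Over all cells, 12 were lower than in Aire-positive cells and none was higher, with sums of 300.1 and 1084.1 CPM. The sum was not lower in every mouse: in B6 mouse 1 it was higher in the cycling cells, at 879.1 CPM. The remaining mice had lower sums in the cycling cells. Single cells weighed heavily, with highest values of 10244.3 CPM in cycling and 16788.8 CPM in Aire-positive cells, against medians of 51.7 and 137.0. Rbp3, Sst, Mup1 and Fabp2 were at 0 in the cycling cells, where a count of 0 allows up to 3 UMIs in all.

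The tuft, microfold, enterocyte-hepatocyte and keratinocyte programmes were low. Tuft markers summed to 73.37 CPM in cycling cells against 1214.6 in Aire-positive and 2784.4 in Aire-negative cells. Microfold markers summed to 119.7 against 1180.9 and 1399.7 CPM, enterocyte and hepatocyte markers to 110.2 against 2080.4 and 2480.6, and keratinocyte markers to 84.05 against 1187.5 and 2446.1. All 8 genes of each of these 4 lists were lower than in Aire-positive cells over all cells, but only the tuft sum was lower in every mouse. In NOD mouse 2 keratinocyte markers were at 125.7 against 65.33 CPM and enterocyte and hepatocyte markers at 44.22 against 30.49. Microfold markers were at 164.6 against 117.8 CPM in NOD mouse 1. The remaining mice had lower sums. In Aire-positive cells keratinocyte markers reached 13680 CPM in NOD mouse 1, and enterocyte and hepatocyte markers 6723.4 and 7124.2 in the B6 mice. Ccl20, a microfold chemokine, was at 4.77 CPM against 368. The exception among neuroendocrine genes was the early factor Insm1, at 185 CPM against 143, while the other 7 genes of that list were lower. Muscle markers summed to 115.4 CPM, against 97.36 in Aire-positive and 382.2 in Aire-negative cells, with 3 of 8 genes higher than in Aire-positive cells, among them the muscle factor Myog (42.7 CPM against 23.9).

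**Figure D1:**
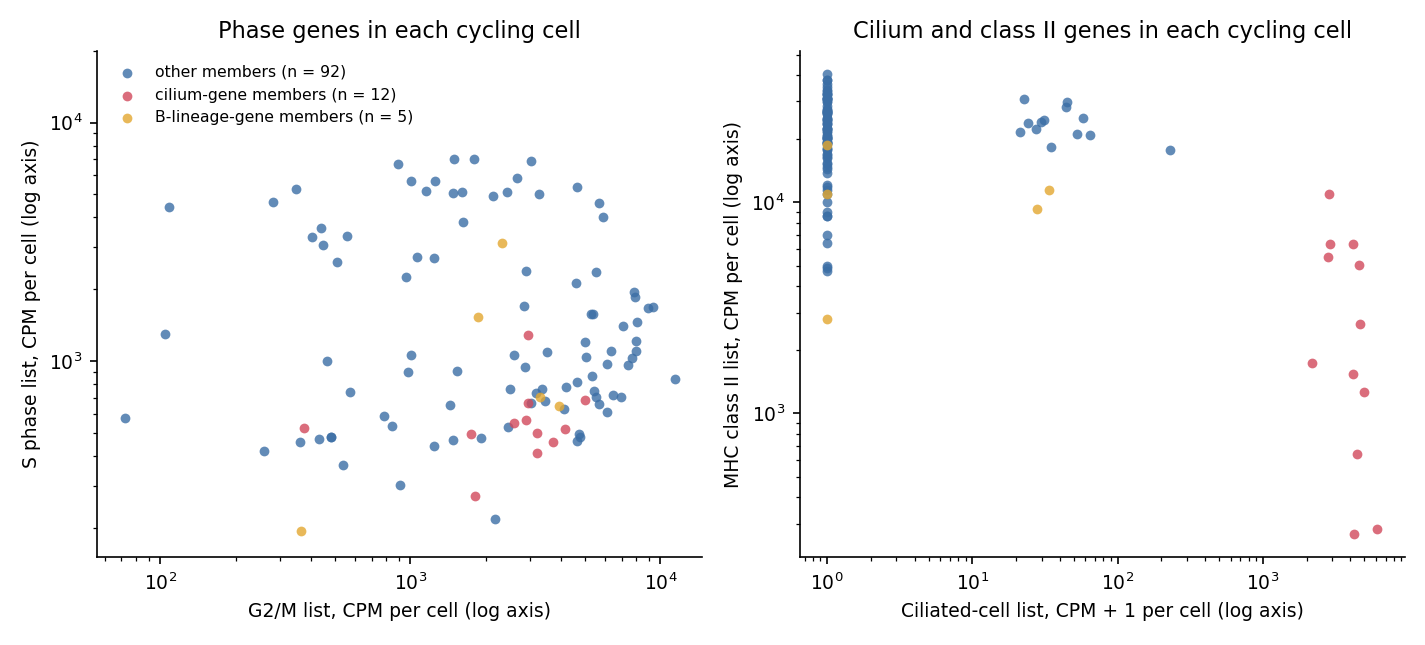
Each point is 1 of the 109 cycling cells: left, the summed S phase list against the summed G2/M list; right, the summed MHC class II list against the summed ciliated-cell list plus 1, all in CPM per cell on log axes, coloured by kind of member. The 12 cilium-gene members start at 2174.9 CPM of the ciliated list, all other cells end at 229 CPM, and the cilium-gene members lie low in class II (median 2201.1 CPM against 22238.6 in the other members).

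The 12 cilium-gene members carried the genes of cells that build many cilia, together with an unusual part of the division programme. Their 7 ciliated-cell markers summed to at least 2174.9 CPM per cell, with Foxj1, the master factor of motile cilia, at 567 CPM against 4.2 in the other members, and the dynein gene Dynlrb2 at 1759.7 against 0. Genes of the stage at which basal bodies are multiplied were high: Deup1, which builds the deuterosome, was at 929 CPM against 0.3, the regulator genes Mcidas and Ccno at 233 against 0 and 371 against 0.3, and Cdc20b at 438 against 0. The centriole duplication genes Plk4 and Stil were at 245 against 41.1 and 169 against 7.5 CPM, and Myb was at 349 against 61.5.

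Among the selecting genes the 12 cells differed from one gene to the next. Top2a (330 CPM against 298 in the other members), Cdk1 (259 against 206), Cenpf (172 against 165) and Ccnb1 (72.2 against 68.1) were at like levels. Mki67 was at 26.5 against 253, Pclaf at 7.37 against 353 and Birc5 at 33.9 against 155. DNA synthesis genes were also low, with Pcna at 4.42 against 148 and Tyms at 2.95 against 139, and so was the S and G2 cyclin gene Ccna2 at 2.95 against 92.1, whereas the meiotic-type cyclin gene Ccna1 was at 329 against 4.2. The S phase list summed to 509.9 CPM against 2346.2 and the G2/M list to 2909.3 against 3168.4. The inhibitor genes Cdkn1a (619 against 41.4) and Cdkn1c (1109.8 against 95.4) were high. Since these cells were set apart after their values were seen, the differences carry no test.

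Several medullary genes, though not Fezf2, were near 0 in the 12 cells. Aire was at 4.42 CPM against 350, and no cilium-gene member held 3 or more Aire UMIs; after thinning, 0.0% of them held any, against 55.1% of the other members. Krt5 was at 5.9 CPM against 919 and Krt14 at 7.37 against 710, while Krt8 was at 1706.7 against 1332.6, and Cd40 and Foxn1 were at 0 against 134 and 77.4. Fezf2 was at 139 CPM against 486, with a UMI in 11 of the 12 cells (33.3% after thinning, against 77.5% of the other members), and Cd80 was at 28.0 against 67.5. The cells were deep, with a median of 57531 UMIs. The gate held 103 cells with the ciliated list at or above 1000 CPM, of which 12 were members, and the median depth was 13991 UMIs in the 62 with none of the 9 genes and 24677 UMIs in the 29 with 1 to 3. The 12 members came unevenly from the mice: 4 and 3 from the B6 mice, 1 and 0 from BALB/c, 1 and 0 from NOD and 3 from no assigned mouse. They made up 43.8% of B6 members, 2.86% of BALB/c and 3.7% of NOD members. The 103 gate cells had another split: 16 were from B6, 68 from BALB/c and 12 from NOD mice, and 7 had no mouse. Thus 7 of 16 such cells were members in B6, 1 of 68 in BALB/c and 1 of 12 in NOD mice.

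**Figure D2:**
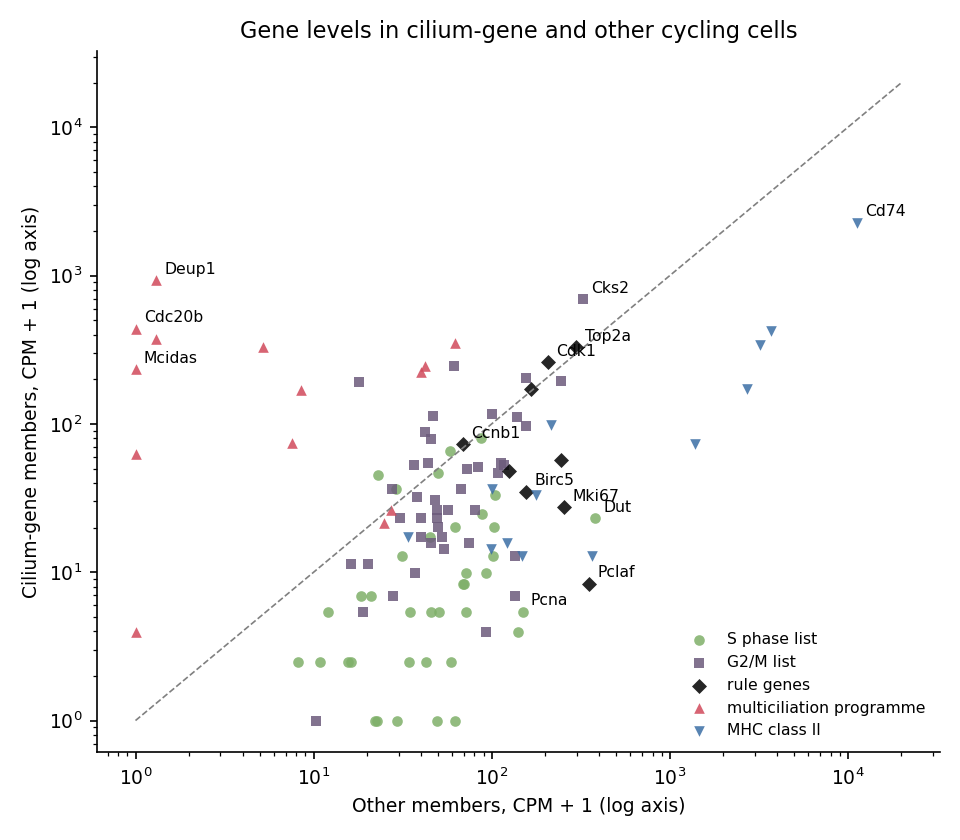
Each point is 1 gene, with its CPM plus 1 in the 92 other members on the x axis and in the 12 cilium-gene members on the y axis (log axes), coloured by gene list; the dashed line marks equal levels. Top2a, Cdk1 and Ccnb1 lie near the line, Pclaf, Pcna and Mki67 below it, and Deup1, Mcidas and Cdc20b far above it.

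The 5 B-lineage-gene members held 12660.5 to 19840.8 CPM of the 7 B lineage markers, against at most 203 CPM in the other members. Nearly all of it was Jchain, the joining chain of secreted antibody, at 16106.9 CPM, and outside the list the antibody light chain gene Igkc stood at 183137 CPM. The B cell receptor gene Cd79a was at 84.4 CPM. These cells held a median of 74151 UMIs, and 4 of the 5 had no mouse. One of the cilium-gene members also held 13362.3 CPM of B lineage markers. Whether such cells are mixed droplets was not tested beyond the hashtag share, and no doublet caller was run.

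Cells without a mouse were more frequent among the cycling cells. Of 109 members, 31 (28.4%) had none, against 16.8% of 1699 other gate cells. Their median hashtag count was 128 UMIs with 46.5% from the leading hashtag, against 4100.5 UMIs and 97.2% in members with a mouse, while their RNA depth was alike (42354 and 44594 UMIs). The share without a mouse was 17.6% of 34 members with 4 or 5 of the genes and 42.3% of 52 with 8 or 9, with 3 cells of 23 in between. These 31 cells enter no strain comparison.

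The strain assignments were checked on a gene that the rule did not read. H2-Ea, a class II gene that B6 and NOD mice are known not to express, was at 2575.5 and 2399.2 CPM in members from the BALB/c mice, 11.1 and 11.6 in NOD, and 247 and 0 in B6. In B6 mouse 1, 96 of its 98 UMIs lay in 1 cell of 54866 UMIs, with 94.0% of its hashtag UMIs from that mouse. The pseudogene Gm15772 was found in 35 of 35 BALB/c members and the pseudogene Rps24-ps3 in 27 of 27 NOD members. Both were called in the strain comparisons built on these same assignments, so their match is a description and not a separate check. The cell with H2-Ea held 0 UMIs of Gm15772, but 4 UMIs of Gm6166, a pseudogene at 296 and 267 CPM in BALB/c members, which were all the Gm6166 UMIs in B6 members. It was kept, and the counts of called genes are also given without it.

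The share of gate cells that were cycling was highest in the NOD mice. It was 5.56% (10 of 180; 95% exact Clopper-Pearson interval 2.7 to 9.98%) and 3.19% (6 of 188; 1.18 to 6.82%) in the B6 mice. In the BALB/c mice it was 2.22% (8 of 361; 0.961 to 4.32%) and 5.0% (27 of 540; 3.32 to 7.19%). In the NOD mice it was 13.5% (15 of 111; 7.77 to 21.3%) and 10.7% (12 of 112; 5.66 to 18.0%). Both NOD mice lay above the other 4, though the interval of NOD mouse 1 overlapped that of B6 mouse 1, and the interval of NOD mouse 2 those of both B6 mice and of BALB/c mouse 2. The means were 4.374% ± 1.67 (SD, n = 2) in B6, 3.608% ± 1.97 in BALB/c and 12.11% ± 1.98 in NOD mice. The 3 strains did not differ past the threshold in a two-sided exact permutation test (p = 0.133 over 90 arrangements, where the smallest p possible is 0.0667). The intervals cover counting error only.

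The difference between NOD and B6, 7.74 percentage points, was 3.725 points when membership was set on cells thinned to 5000 UMIs. It was 9.911 points without the cilium-gene and B-lineage-gene members. The NOD mice also gave the fewest gate cells, and the median depth of cycling cells was 46382 and 39120.5 UMIs there, 39539 and 52867.5 in the B6 mice and 48155 and 27737 in the BALB/c mice. The part of depth in the difference was not tested beyond the thinning.

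**Figure D3:**
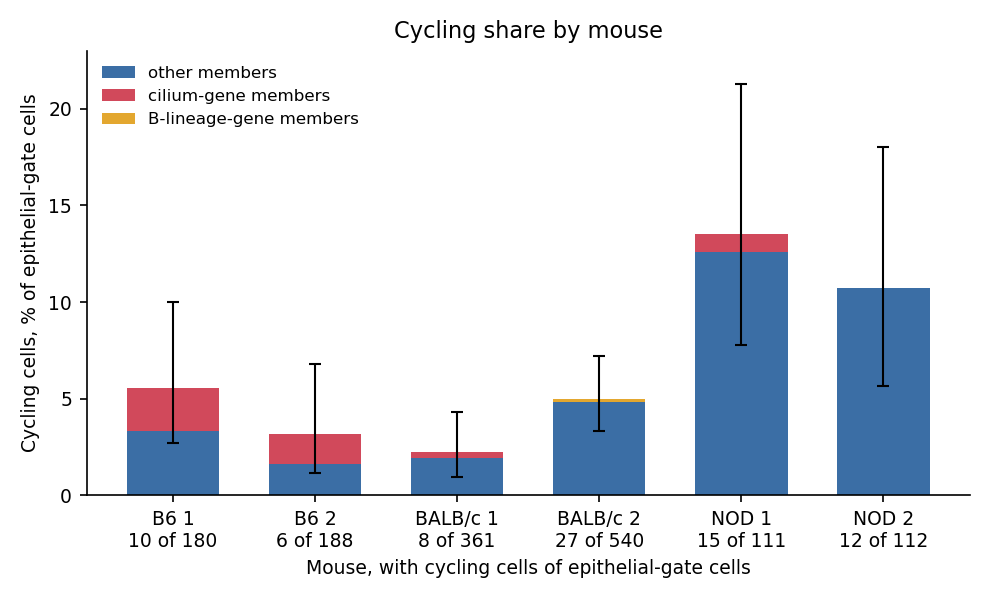
Bars give cycling cells as a percentage of gate cells in each of the 6 mice, stacked by kind of member, with 95% exact intervals for the whole bar as whiskers. The NOD bars stand at 13.5 and 10.7%, the other 4 between 2.22 and 5.56%, and cilium-gene members fill a large part of the B6 bars.

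Members were split into S phase and G2/M by which of 2 gene lists (38 S phase and 43 G2/M genes, none of the 9 selecting genes) held more UMIs after thinning to 5000 UMIs. Of 106 members, 33 were S, 68 were G2/M and 5 tied, and 16 lay within 1.5 times of equality. In the B6 mice 2 of 10 and 2 of 6 members were S, in the BALB/c mice 2 of 6 and 8 of 24 (33.3% in each), and in the NOD mice 5 of 14 (35.7%) and 5 of 12 (41.7%). The strain means of 26.67% ± 9.43, 33.33% ± 0.0 and 38.69% ± 4.21 (SD, n = 2) did not differ past the threshold (two-sided exact permutation test, p = 0.2). Without the cilium-gene and B-lineage-gene members the NOD mean minus the B6 mean was -11.31 points, in place of 12.02 (exact permutation p = 0.733).

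Strain differences in expression were tested on UMI sums per mouse with edgeR's quasi-likelihood test, with p-values adjusted by the Benjamini-Hochberg method over all genes tested and called at 0.05. BALB/c against B6 members gave 39 called genes of 7499 (0.52%), 26 higher and 13 lower. NOD against B6 gave 78 (1.04%), 45 higher and 33 lower. NOD against BALB/c gave 11 (0.147%), 6 higher and 5 lower. Without the cilium-gene and B-lineage-gene members, which leaves 6 and 3 cells in the B6 mice, the counts were 13 of 6365 (0.204%), 16 (0.251%) and 16 (0.251%). Without the B6 cell with H2-Ea they were 85, 177 and 11. The comparisons with B6 share the same 2 B6 mice. Differences are given below as log2 fold changes with the standard error (SE).

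The keratin gene Krt7 was lower in the cycling cells of B6 mice than in those of the other strains. Krt7, a simple-epithelium keratin (chr15:101411043-101430313), was at 42.8 and 61.6 CPM (B6), 393 and 454 (BALB/c) and 545 and 505 (NOD members). No B6 mouse reached the level of any other mouse. The differences from B6 were 3.1 (SE 0.277, edgeR adjusted p = 0.00536) in BALB/c and 3.45 (SE 0.279, adjusted p = 0.00329) in NOD members. Without the 2 set-apart kinds the B6 values were 81.3 and 142 CPM, and the differences were 2.16 (edgeR adjusted p = 0.0185) and 2.36 (adjusted p = 0.0135). A Krt7 UMI was found in 5 of 16 B6, 33 of 35 BALB/c and 27 of 27 NOD members. In the non-cycling gate cells of the same mice Krt7 was at 313 and 316, 347 and 338, and 660 and 627 CPM.

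Krt14, the basal keratin and 1 of the 5 gate genes (chr11:100203162-100207548), was at 144 and 135 CPM (B6), 871 and 676 (BALB/c) and 749 and 1079.9 (NOD members). The B6 mice lay below the other 4. Since the rule read Krt14, these levels are a description with no test. Non-cycling gate cells showed the same order, at 82.3 and 126, 621 and 637, and 1053.3 and 1235.9 CPM. Krt14 stays in the counts of called genes above, but its call draws on values that the rule read and is not used. No other gene of the cell type marker lists was called against B6.

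No gene of the list of RANK and CD40 signalling and costimulation was called in a strain comparison (13 tested). Cxcl11, a chemokine gene outside that list and marked by the annotation as a polymorphic pseudogene (chr5:92359544-92365485), was at 42.8 and 30.8 CPM (B6), 662 and 779 (BALB/c) and 60.2 and 65.2 (NOD members). It was thus high in the BALB/c mice and low in the other 4, by 4.32 (SE 0.293, edgeR adjusted p = 0.0012) over B6, and NOD was 3.48 lower on the log2 scale than BALB/c (SE 0.269, adjusted p = 0.00224). A Cxcl11 UMI was found in 8 of 16 B6, 30 of 35 BALB/c and 17 of 27 NOD members. Non-cycling gate cells were also highest for Cxcl11 in BALB/c, at 30.2 and 72.6, 390 and 415, and 94.9 and 75.2 CPM. Il11ra1, the interleukin 11 receptor chain (chr4:41699989-41769474), was at 287 and 204 CPM (B6), 1113.6 and 709 (BALB/c) and 1684.3 and 1729.2 (NOD members). NOD exceeded B6 by 2.89 (SE 0.275, edgeR adjusted p = 0.00622), and by 1.86 without the 2 kinds (adjusted p = 0.0319). Non-cycling gate cells showed the same order of strains for Il11ra1, at 114 and 138, 344 and 263, and 1039.9 and 719 CPM. Il11ra1 has near-identical copies in the mouse genome, so its counts are uncertain.

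Igfbp5, which binds insulin-like growth factors (chr1:72857932-72874884), was at 2.52 and 3.85 CPM (B6), 87.1 and 64.6 (BALB/c) and 117 and 130 (NOD members). The differences from B6 were 4.56 (SE 0.529, edgeR adjusted p = 0.0176) and 5.33 (SE 0.513, adjusted p = 0.00622), and neither was called without the 2 kinds (adjusted p = 0.473 and 0.4). Acta2, smooth muscle actin (chr19:34241090-34255590), was at 0 in both B6 mice, 187 and 124 CPM in BALB/c and 283 and 116 in NOD members. That is at least 31.2-fold and 47.2-fold higher than a floor of 3 UMIs over the B6 members (edgeR adjusted p = 0.0312 and 0.0216), and it was not called without the 2 kinds (adjusted p = 0.097 and 0.0711). In non-cycling gate cells Acta2 was also lowest in B6, at 14.9 and 24.3, 207 and 198, and 375 and 507 CPM. Igfbp5 overlapped between the strains there, at 381 and 357, 233 and 405, and 234 and 456 CPM. Ccnb1ip1, a ubiquitin ligase gene named for its binding to cyclin B1, was at 2.52 and 0 CPM (B6), 195 and 99.6 (BALB/c) and 106 and 179 (NOD members) (6.41 and 6.44, edgeR adjusted p = 0.0278 and 0.0188). Without the 2 kinds it was just outside the threshold (adjusted p = 0.0506 and 0.0553). Gda, guanine deaminase, was at 40.3 and 23.1 CPM (B6), 2.64 and 1.09 (BALB/c) and 96.6 and 65.2 (NOD members). The NOD mice exceeded the BALB/c mice by 5.5 (SE 0.629, edgeR adjusted p = 0.0157).

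Several called features were processed pseudogenes or genes with near-identical copies, whose counts are uncertain because reads can be split between copies. Gm15772 was at 0 and 0 CPM (B6), 1005.4 and 1049.7 (BALB/c) and 1.58 and 2.33 (NOD members), at least 227-fold higher in BALB/c than the B6 floor. Rps24-ps3 was at 2.52 and 3.85, 2.64 and 4.38, and 551 and 621 CPM. Gm11942 was at 0 in all 4 B6 and BALB/c mice and at 269 and 300 CPM in NOD members. Others were found in 2 strains: the pseudogene Gm10039 was at 2.52 and 3.85 CPM (B6), 172 and 244 (BALB/c) and 312 and 321 (NOD members). The ribosomal protein gene Rpl26 was low in BALB/c only (1760.7 and 1397.6, 145 and 228, and 2004 and 2529.9 CPM), and the ubiquitin gene Ubb was low in NOD only (960 and 1058.8, 1008 and 812, and 199 and 186 CPM). Each of these features was high and low in the same strains in non-cycling gate cells. There Rpl26 was at 943 and 906, 86.5 and 102, and 1320.5 and 1430.3 CPM, and Ubb at 850 and 881, 964 and 1114.4, and 261 and 184.

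Genes lower in BALB/c or NOD than in B6 members were in part genes of cilia. Ropn1l, a sperm and cilium protein gene, was at 196 and 177 CPM (B6), 23.7 and 3.28 (BALB/c) and 6.33 and 2.33 (NOD members) (NOD against B6: -5.18, SE 0.78, edgeR adjusted p = 0.0358). It stood at 230 CPM in cilium-gene members and at 1.2 in the other members. The dynein gene Dnah1 was at 80.6 and 65.5, 2.64 and 2.19, and 7.91 and 2.33 CPM, with 105 CPM in cilium-gene and 1.2 in other members. The B6 mice held 7 of the 9 cilium-gene members with a mouse, and without the 2 kinds both genes were too low to be tested. Rgs17, a regulator of G protein signalling, was at 85.6 and 57.8 CPM (B6), 0 and 3.28 (BALB/c) and 6.33 and 2.33 (NOD members). It was called only without the 2 kinds (-5.62 and -5.01, edgeR adjusted p = 0.00811 and 0.0135), against adjusted p = 0.0561 and 0.0585 with them.

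No gene of the 5 division lists was called in a strain comparison. The median log2 difference of BALB/c from B6 was -0.0269 for 9 licensing genes tested, -0.0544 for 28 DNA synthesis genes, 0.497 for 18 mitotic kinase and cyclin genes and 0.698 for 38 spindle genes, against 0.0314 over all genes. For NOD against B6 the medians were 0.531, 0.454, 0.215 and 0.474, against 0.0171. Without the 2 kinds, the NOD medians were -0.222, -0.0912, 0.301 and 0.253, and the BALB/c medians -0.992, -0.846, 0.36 and 0.505. In BALB/c 4 of 10 licensing and 7 of 28 DNA synthesis genes then had an unadjusted p under 0.05 in edgeR, against 455 of 6365 over all genes, and none was called. MHC class II genes had a median difference from B6 of 0.94 in BALB/c and 0.994 in NOD members, which came to 0.0736 and 0.0248 without the 2 kinds. Of 13 class II list genes, 1 was called, Ctsl, the protease cathepsin L, at 83.1 and 77, 203 and 205, and 201 and 195 CPM (NOD against B6: 1.4, SE 0.248, edgeR adjusted p = 0.0474). Of 22 interferon-stimulated genes tested, 1 was called, Iigp1, at 50.4 and 34.7, 119 and 177, and 211 and 151 CPM (NOD against B6: 2.16, SE 0.362, edgeR adjusted p = 0.0401). Neither Ctsl nor Iigp1 was called without the 2 kinds (edgeR adjusted p = 0.547 and 0.437). H2-Ea was among the 13 class II genes tested and was not called in any strain comparison. Yet it was at 2575.5 and 2399.2 CPM in BALB/c and 11.1 and 11.6 in NOD members. The lack of a call therefore does not show that a gene was equal between strains.

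**Figure D4:**
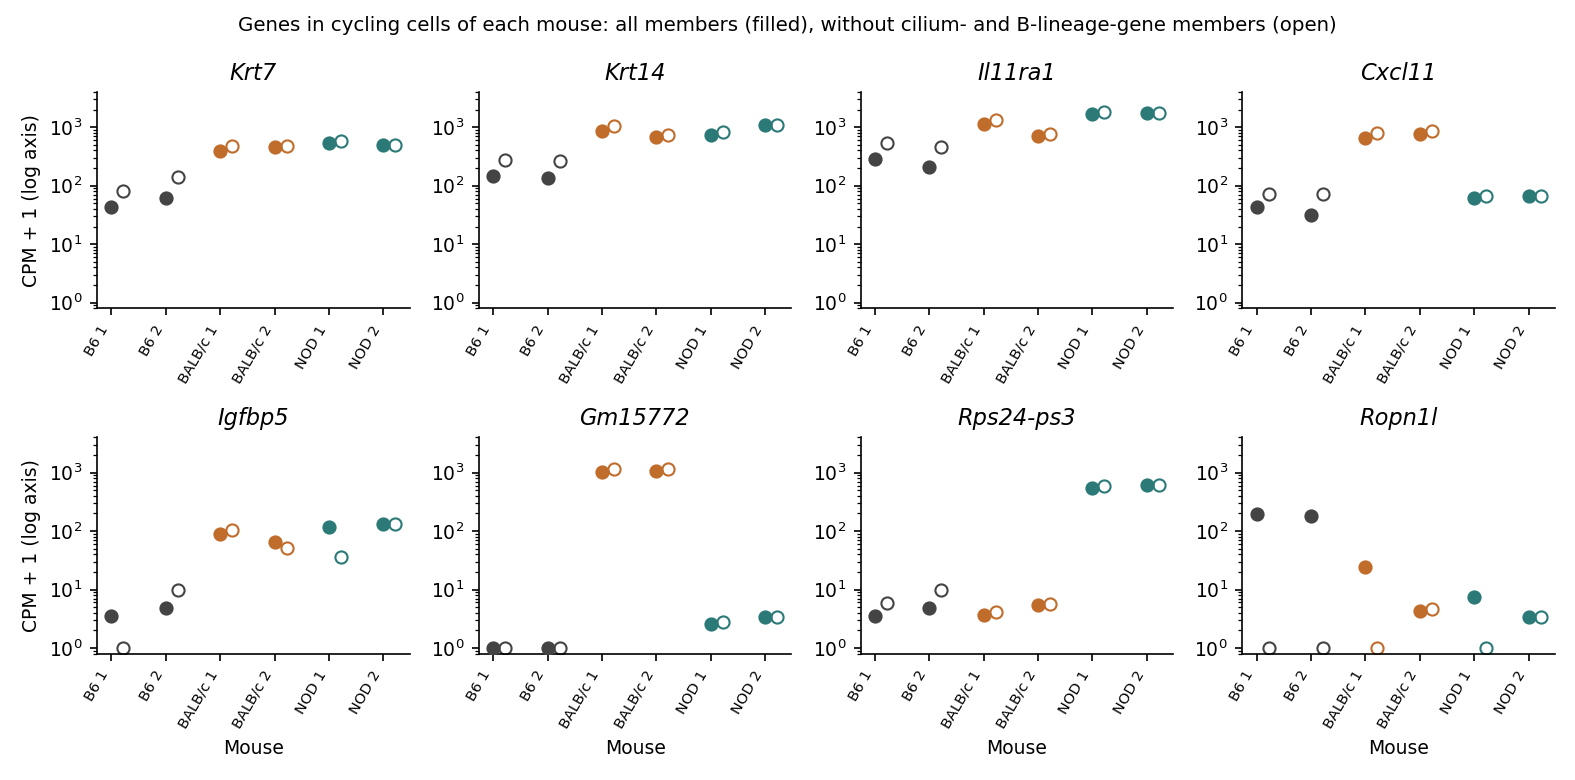
Each panel gives 1 gene, with CPM plus 1 on a log axis for the summed cycling cells of each of the 6 mice; filled points are all members, open points leave out cilium-gene and B-lineage-gene members. Krt7, Krt14 and Il11ra1 are lowest in both B6 mice, Cxcl11 is high in BALB/c alone, Gm15772 and Rps24-ps3 mark BALB/c and NOD, and the open points of Ropn1l drop in B6.

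Whether strain differences were particular to cycling cells was tested as an interaction with the non-cycling Aire-positive cells of the same mice. It gave 37 called genes of 9157 (0.404%), and 1 of 7980 (0.0125%) without the cilium-gene and B-lineage-gene members, with no gene in both. Igfbp5 led the first set. In cycling cells it was at 2.52 and 3.85, 87.1 and 64.6, and 117 and 130 CPM. In Aire-positive non-cycling cells it was at 336 and 540 CPM (B6), 96.6 and 140 (BALB/c) and 354 and 492 (NOD mice). B6 was thus lowest in the cycling cells and not in the others (edgeR adjusted p = 0.00801, and 0.169 without the 2 kinds).

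Glud1, glutamate dehydrogenase, was at 37.8 and 46.2, 84.4 and 175, and 77.6 and 76.8 CPM in cycling cells, and at 473 and 521, 69.9 and 75.8, and 92.8 and 100 CPM in Aire-positive non-cycling cells. The B6 mice were thus highest in the Aire-positive non-cycling cells and lowest in the cycling cells (edgeR adjusted p = 0.0167, and 0.0778 without the 2 kinds). Krt7 was also called (edgeR adjusted p = 0.0386, and 0.401 without the 2 kinds). In Aire-positive non-cycling cells it was at 386 and 306 CPM (B6), 304 and 462 (BALB/c) and 568 and 610 (NOD mice). There the B6 mice overlapped the BALB/c mice but still lay below the NOD mice. Cilium genes such as Spag16, Cfap299 and Rp1 made up part of the rest. Tenm1 rested on 1 cell, which held 85.5% of its UMIs in members. The comparison cells themselves differed in makeup between mice: enterocyte and hepatocyte markers summed to 6723.4 and 7124.2 CPM in the Aire-positive non-cycling cells of the B6 mice and to between 30.49 and 529.0 CPM in those of the other 4, and keratinocyte markers to 13680 CPM in NOD mouse 1 and to at most 119.3 CPM in the other 5 mice. The part of these markers in the interaction was not tested.

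S phase and G2/M members were compared within mice, with UMI sums of both classes for each mouse that had at least 3 cells in both. Here the split used all UMIs of each cell without thinning, which gave 36 S and 71 G2/M members with 2 tied. With all members, edgeR called 0 of 3853 genes (0.0%), 217 had an unadjusted p under 0.05, and DESeq2 called 24. Without the cilium-gene and B-lineage-gene members, 28 of 3605 genes (0.777%) were called, 5 higher and 23 lower in S, in 2 BALB/c and 2 NOD mice. Of the 28, 18 were genes that the split itself or the rule had used, and the other 10 were not. The B6 mice had too few cells left, and leaving the 2 kinds out was a choice made after the values were seen. The values below are from the 4 mice, in the order BALB/c 1 and 2 and NOD 1 and 2. Their S classes held 3, 9, 4 and 5 cells and their G2/M classes 4, 17, 10 and 7, so the lowest S levels rest on very few UMIs. S means only that the S list held more UMIs than the G2/M list. In BALB/c mouse 1 the S members had S lists of 1300.28, 472.98 and 458.9 CPM, against a median of 413 in Aire-positive non-cycling cells.

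Isg15, an interferon-induced ubiquitin-like protein gene, was at 7.26, 6.75, 12.1 and 12.6 CPM in S and at 256, 214, 83.9 and 308 CPM in G2/M members. Each mouse was lower in S (-4.41, SE 0.385, edgeR adjusted p = 0.00187), and with all members the difference was -3.04 (adjusted p = 0.158). Rnf213, a large ubiquitin ligase gene also induced by interferon, was at 43.6, 30.4, 24.2 and 42 CPM in S and 114, 86.5, 98.7 and 178 in G2/M members (-1.73, SE 0.3, edgeR adjusted p = 0.0421, and 0.837 with all members). Parp14 was likewise lower in S (-2.4, edgeR adjusted p = 0.0371). Over the interferon-stimulated list, 1 of 11 genes tested was called, and the median difference was -0.728.

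The beta-tubulin gene Tubb4b was at 116, 115, 103 and 210 CPM in S and 918, 416, 693 and 455 in G2/M members (-2.1, SE 0.305, edgeR adjusted p = 0.0281). Cdkn3, a phosphatase gene known to peak in mitosis, was at 7.26, 3.37, 6.04 and 12.6 against 79.8, 55.2, 71.6 and 73.1 CPM (-3.18, SE 0.46, adjusted p = 0.0239). Neither gene belonged to the lists that made the split. Camta1, a calmodulin-binding transcription factor gene, was higher in S in each mouse, at 79.9, 105, 139 and 63 against 28.5, 35, 37 and 20.9 CPM (1.67, SE 0.287, edgeR adjusted p = 0.0421, and 0.14 with all members).

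Aire did not differ between the phases past the threshold (-0.0243, SE 0.288, edgeR adjusted p = 0.997), with 344 CPM in S and 369 in G2/M cells of the other members. Fezf2 was 0.548 higher in S as fitted (SE 0.159, edgeR adjusted p = 0.305), in 4 of 4 mice. None of 12 class II genes tested and none of 13 class I genes was called.

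**Figure D5:**
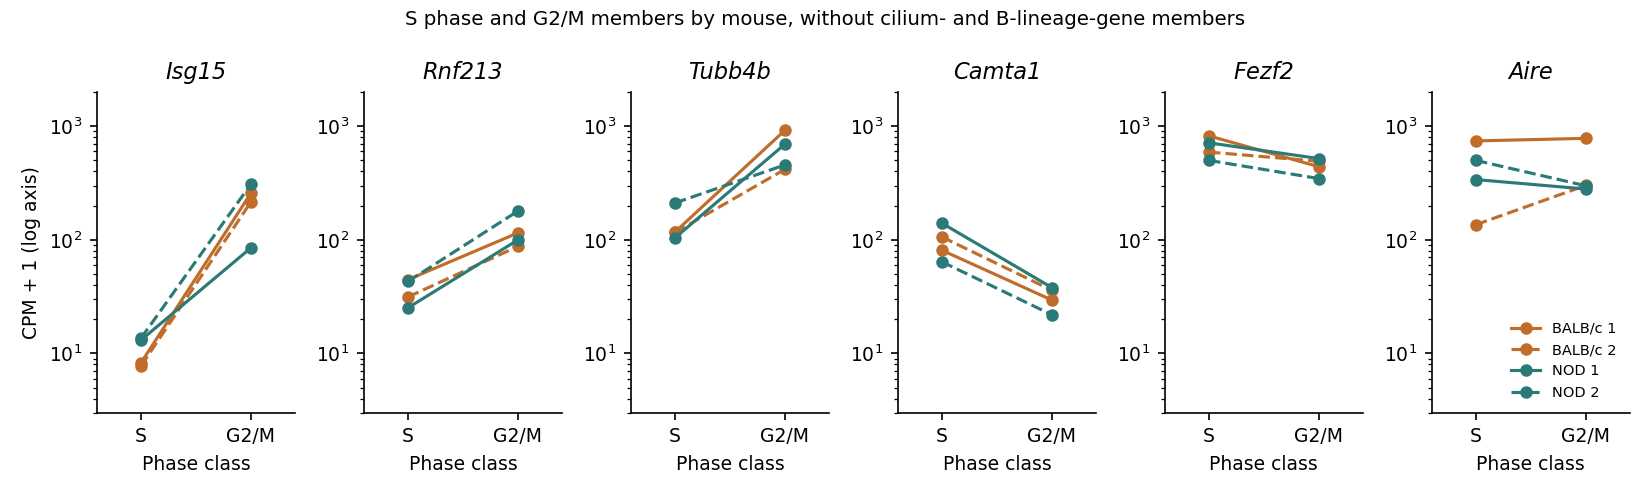
Each panel gives 1 gene in S phase and G2/M members, without cilium-gene and B-lineage-gene members, as CPM plus 1 on a log axis; each line joins the classes of 1 mouse (BALB/c 1 and 2, NOD 1 and 2). Isg15, Rnf213 and Tubb4b are lower in S in all 4 mice, Camta1 is higher, and the lines of Aire run in both directions.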

How the data were processed

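The deposited gene and hashtag values were UMI counts per droplet barcode, unnormalized whole numbers that the authors obtained from Cell Ranger 7.0.0 with mm10, per the submitters' processing notes; which annotation release they used is not given in the sources used here. GENCODE M21 on mm10 matched 54435 of 55487 gene identifiers, version included, and gave the coordinates. The members and gene lists were chosen with earlier results of these data known.

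Counts were filtered, hashtags assigned and cells classed with Python 3.11.15, numpy 2.4.6 and scipy 1.17.1. No doublet caller was run. The label of the hashtag sample gives the same number to both NOD hashtags; each was treated as its own mouse, since the design text gives 2. Nothing states how replicate mice were housed or dissected.

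UMI sums per mouse entered edgeR 4.0.16 (R 4.3.3, limma 3.58.1; TMM scaling, filterByExpr, robust quasi-likelihood F test, 1 fit for 3 strains, 3 residual degrees of freedom, common dispersion 0.105). The interaction and phase fits held the mouse as a block. DESeq2 1.42.0 and other filters, thresholds and left-out mice were alternatives, and the fits were tested on simulated data. Named strain genes were the 10 higher and 10 lower of largest change among called genes of at least 20 mean CPM with no overlap between mice, plus called list genes, and for the interaction the 10 of smallest p; those printed are examples. Krt7, Krt14, Il11ra1 and Rgs17, and Ubb against B6, fall outside the rule and were chosen after their values were seen, as were the phase genes, taken from the fit without the 2 kinds. The split into 3 kinds of member (ciliated list at 1000 CPM or B lineage list at 5000 CPM per cell) and the list of genes of multiplying basal bodies were also chosen after seeing the data. UMI precision is limited by cell numbers, 6 to 27 members a mouse.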

Additional observations from a re-analysis of the deposited data

Results flagged for a closer look

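The interaction test found 37 genes whose strain differences in cycling cells differed from those in Aire-positive non-cycling cells of the same mice (edgeR, adjusted p of at most 0.05), and 1 without the cilium-gene and B-lineage-gene members. Igfbp5 and Glud1 were among the 37, with B6 levels of 2.52 to 46.2 CPM in cycling and 336 to 540 CPM in non-cycling cells.

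A signal lay in cells outside every strain comparison: 31 cycling cells had no mouse, 22 of them among the 52 members with 8 or 9 of the selecting genes. Of the 31, 11 held fewer than 100 hashtag UMIs and 20 held a mixture.

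The 9 hashtag features that belong to no mouse of this pool held 9911 UMIs over all barcodes, 368 of them in cycling cells, against 11083995 UMIs for the 6 hashtags of the pool.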

How the results depend on the processing

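The NOD excess in the cycling share (7.74 points) was 10.06 at 3 selecting genes, 5.143 at 5, 3.725 after thinning and 9.911 without the cilium-gene and B-lineage-gene members, and 6.341 to 9.14 leaving out 1 mouse. Without cells holding 2 or more UMIs of the leukocyte lists, which left no NOD member, it was -1.724. The S share difference (12.02 points) was 2.5 without thinning, -11.31 without those 2 kinds, and 5.357 to 18.69 leaving out 1 mouse.

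Called genes (BALB/c against B6, NOD against B6, NOD against BALB/c; 39, 78 and 11) were 125, 255 and 27 with DESeq2, 717, 1079 and 201 with no filter, 126, 75 and 28 at 3 selecting genes, 17, 162 and 11 at 5, 13, 16 and 16 without the 2 kinds, and 85, 177 and 11 without the B6 cell with H2-Ea. Leaving out 1 mouse gave 27 to 355, 11 to 561 and 5 to 36. BALB/c mouse 1 (355, 499 and 21 without it) and BALB/c mouse 2 (36, 561 and 36) moved the counts most upward. Without NOD mouse 1 they were 44, 13 and 7, without NOD mouse 2 30, 11 and 5, without B6 mouse 1 27, 36 and 22, and without B6 mouse 2 31, 40 and 21. The fit with the replicate block gave 55, 137 and 11. As the mice were numbered here, deviations from the strain mean correlated positively between same-numbered mice in every pair of strains. The correlations were 0.106 (B6 with BALB/c), 0.0359 (B6 with NOD) and 0.363 (BALB/c with NOD). The label of the hashtag sample gives both NOD hashtags the same number, so it does not settle which NOD mouse is which. With the NOD numbers exchanged, the 2 correlations with NOD would be -0.0359 and -0.363. The same limit holds for the replicate block. The main fit did not take the number as a pairing, and a shared effect was not tested beyond the block.

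Interaction calls (37) were 117 against all non-cycling gate cells, 448 with no filter, 1 without the 2 kinds and 10 to 141 leaving out 1 mouse (10 without B6 mouse 1, 121 and 111 without the BALB/c mice, 114 and 141 without the NOD mice). Cd14 turned its direction against all non-cycling cells (0.941). Phase calls (0) were 125 with no filter, 24 with DESeq2, 14 without the mouse block, 119 without cells within 1.5 times of equality, 28 without the 2 kinds and 0 to 5 leaving out 1 mouse. The causes were not tested. The strain fit without leukocyte-list cells was not run, since 9 members remained. The settings without the 2 kinds and without the H2-Ea cell were chosen after seeing the data. With 6 to 27 cells a mouse, small differences were not detectable.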
